A study of Mus musculus with 11 samples.

Results

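The 8 genes described here, Sirpa, Itgam, Esam, Cd4, Mgl2, Clec10a, Cd7 and Csf1r, are markers of type 2 conventional dendritic cells. They were taken as a given list. All 8 were measured, each by a single probeset that names no other gene, among 22180 genes in all.

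The exposed group (5 arrays) holds splenic dendritic cells from mice that had received Eµ-Myc lymphoma cells by transfer, and the naive group (6 arrays) holds the same cells from untreated C57BL/6 mice. All 11 arrays carry the strain label C57BL/6. Eµ-Myc is a transgene in which an immunoglobulin heavy chain enhancer drives Myc in cells of the B lineage, so the lymphoma is a B cell tumour. Cells were sorted on CD11c and MHC class II, per the labels to more than 95% purity. The labels give the average tumour load of the recipients' spleens as 10 to 36% of lymphocytes. Age, sex, the time after transfer and whether an array stands for 1 mouse or a pool are not given in the sources used here, so p-values measure the spread between these arrays, which may be technical. Mice lacking C/EBPβ, which the study's design also describes, were not analysed here.

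Conventional dendritic cells take up antigen and present it to T cells. The type 1 kind is known for presentation to CD8 T cells, and the type 2 kind for presentation on MHC class II to CD4 T cells. In mouse spleen the type 2 cells are commonly divided by the adhesion molecule ESAM. ESAM-high cells depend on Notch2 and often carry CD4, while ESAM-low cells share receptors such as CX3CR1 and the receptors for colony-stimulating factors with monocytes. Of the 8 markers, SIRPα and CD11b (Itgam) define type 2 cells in general, ESAM and CD4 the first kind, and Csf1r is shared with the second kind, with monocytes and with macrophages.

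Values are log2 expression, so a difference of 1 is a doubling, and a level can be compared between arrays but not between genes. Array medians lay between 5.53 and 5.61. The genes of olfactory receptors, which these cells are not known to express, lay at 3.40 in the median. A level of 5.605, which 95% of them did not exceed, marked dim genes. Among the 8 markers, 7 had a mean above this mark. Mgl2 was close to it and Clec10a lay below it. The sorted identity was checked with genes common to conventional dendritic cells. Itgax, which encodes CD11c, averaged 11.98 ± 0.13 in exposed and 12.11 ± 0.08 in naive cells (SD, n = 5 and 6), Flt3, the receptor that supports their development, 11.44 ± 0.07 and 11.51 ± 0.09, and the transcription factor gene Zbtb46 9.08 ± 0.10 and 9.20 ± 0.08. Of the 7 measured genes of this kind, 0 had a higher mean in exposed than in naive cells. Their median difference, exposed minus naive, was -0.07. In the limma test described below 0 of them passed, though Itgax (-0.14) and Kit (-0.28) had an unadjusted p under 0.05. Itgax and the MHC class II genes were used in the sort. In earlier work on these values, arrays numbered 4 to 6 and arrays numbered 1 to 3 stood apart in both groups, a split the labels do not explain. The split was not tested within each group here. A second model therefore held this number set as a term over both groups. Its values are given for the markers, and for other genes where it changed the call.

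Of the 8 markers, Cd7 fell in exposed cells and the other 7 did not pass the test. The test was limma across all genes with Benjamini-Hochberg adjustment at 0.05, which called 1.42% of all genes, 0.546% as lower and 0.879% as higher in exposed cells. With all arrays brought to the same 75th percentile it called 215 genes as lower and 166 as higher, where the deposited scale gave 121 and 195. The 8 markers did not move as a block: 4 were lower and 4 higher, and their median difference, exposed minus naive, was -0.01, beside 0.01 over all genes. At an unadjusted p under 0.05 stood 5 of the 8 markers (Cd7, Itgam, Cd4, Clec10a and Csf1r), and 12.2% of all genes. With the number set in the model, Cd7, Cd4 and Itgam fell and none rose, where 1.14% of all genes were called lower and 1.65% higher. In sorted bulk samples, fewer cells of a type and less RNA per cell cannot be told apart.

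**Figure D1:**
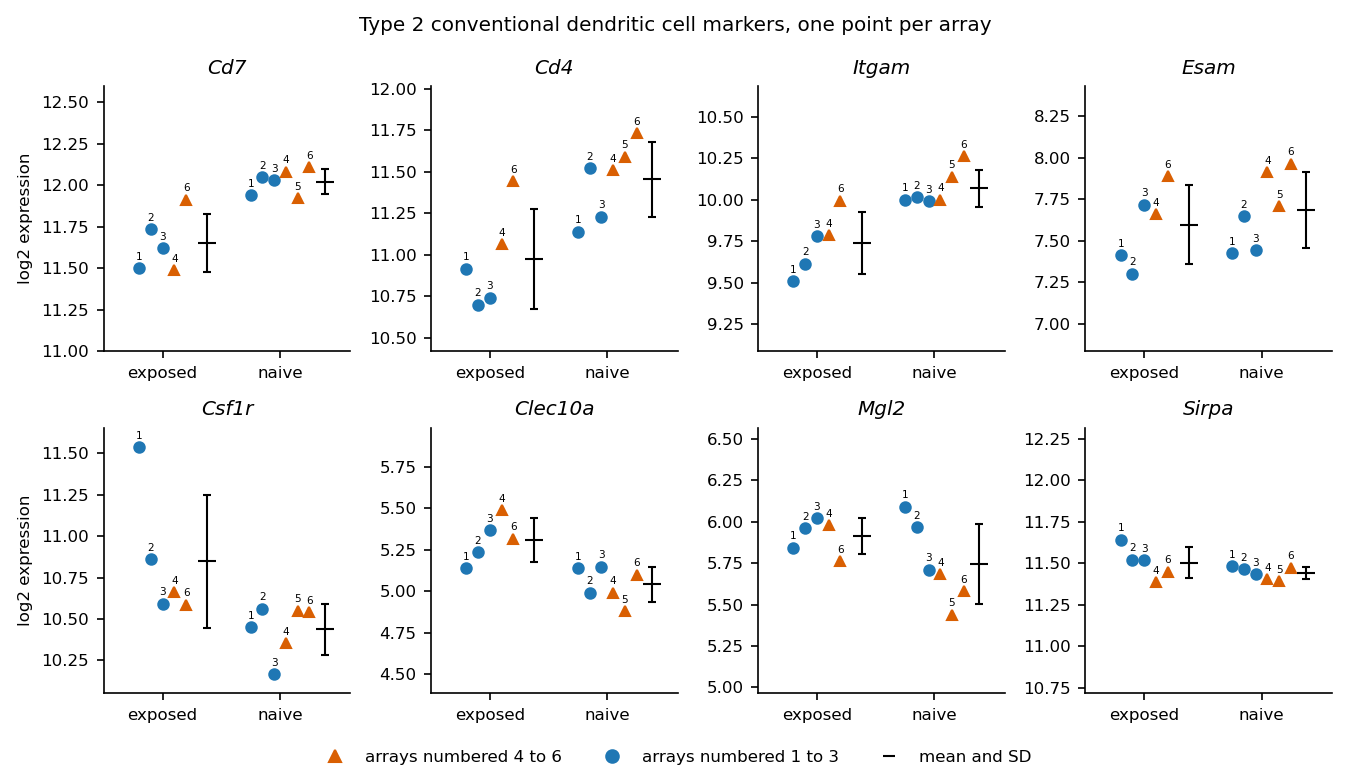
Log2 expression of the 8 markers, with 1 point per array labelled by its array number, exposed arrays left of naive arrays, the number set by colour and shape, and the mean with SD beside each group. Every panel spans 1.6 log2 units; exposed and naive points do not overlap for Cd7 (exposed lower) and for Csf1r (exposed higher).

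Cd7 encodes an immunoglobulin superfamily receptor best known from T cells and natural killer cells. It was measured at 11.50, 11.74, 11.62, 11.49 and 11.91 in exposed arrays 1, 2, 3, 4 and 6. In naive arrays 1 to 6 it was measured at 11.94, 12.05, 12.03, 12.08, 11.92 and 12.11. All 5 exposed arrays lay below all naive arrays, though exposed array 6 and naive array 5 nearly met. Among all genes, 0.875% showed this separation downwards. The means were 11.65 ± 0.18 in exposed and 12.02 ± 0.08 in naive cells (SD, n = 5 and 6). The difference was -0.37 ± 0.07 (SE; 95% limits -0.52 to -0.22; adjusted p = 0.0237), which makes the level 1.29-fold lower in exposed cells. A two-sided exact permutation test over every division of the arrays gave an unadjusted p = 0.00216, the smallest it can give. This value follows from the full separation of the groups and adds nothing to it.

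The fall of Cd7 was alike in both number sets: -0.34 for arrays 4 to 6, -0.39 for arrays 1 to 3. It was -0.36 ± 0.07 with the number set in the model (adjusted p = 0.0174). Its place past the threshold was narrow. With 1 array left out the difference stayed between -0.43 and -0.33, and it passed in 4 of 11 such fits. It failed without exposed array 2, 3 or 4 and without naive array 2, 3, 4 or 6, with adjusted p between 0.0507 and 0.0577. With the number set in the model it passed in 10 of 11, and failed without naive array 2 (adjusted p = 0.0504).

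Cd4, the coreceptor for MHC class II on helper T cells, is also carried by many ESAM-high dendritic cells of mouse spleen. Its level was 10.92, 10.70, 10.74, 11.06 and 11.45 in exposed arrays 1, 2, 3, 4 and 6, and 11.14, 11.52, 11.23, 11.51, 11.59 and 11.73 in naive arrays 1 to 6. Of the exposed arrays, 4 lay below all naive arrays, and exposed array 6 lay among them. The means were 10.97 ± 0.30 in exposed and 11.45 ± 0.23 in naive cells, a difference of -0.48 ± 0.13 (SE; 95% limits -0.77 to -0.19) with an adjusted p of 0.107. This was the largest of the 8 differences, and the spread within the groups was wide.

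Among the 8 markers, the difference between the number sets was largest for Cd4. Arrays 4 to 6 stood 0.38 ± 0.09 above arrays 1 to 3 once the groups were accounted for (adjusted p = 0.0334; 3.3% of all genes passed this test, and Cd4 alone of the 8 markers). Within arrays 4 to 6 the means were 11.25 in exposed and 11.61 in naive cells, and within arrays 1 to 3 they were 10.79 and 11.30. The 2 differences were -0.36 and -0.51. With the number set in the model Cd4 fell by 0.44 ± 0.09 (adjusted p = 0.0170), and 10 of 11 fits with an array left out passed; without exposed array 4 the adjusted p was 0.0508. In the model without number sets it passed only without exposed array 6, where the difference was -0.60 (adjusted p = 0.0181).

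T cells also transcribe Cd4 and Cd7. Of the 9 T cell markers measured, 0 were called in limma, and 4 had an unadjusted p under 0.05 with a higher level in exposed cells while Cd5 had one with a lower level. The log2 of their summed level lay between 9.64 and 10.04 in exposed arrays and between 9.80 and 10.00 in naive arrays. Cd5 weighs most in this sum: its mean over all arrays was 8.60, and that of Cd8b1, the next gene, was 7.71. The defining T cell genes Cd3e, Cd3d and Cd3g had means of 5.58, 5.39 and 4.62, all below the mark for dim genes. Of the 6 natural killer cell markers, the receptor gene Ncr1 was called, at 6.18 in exposed and 5.72 in naive cells. Klrb1c (0.29), Prf1 (0.28) and Nkg7 (0.25) were also higher in exposed cells at an unadjusted limma p under 0.05, and Gzma (-0.07) and Eomes (-0.09) were not. The median difference of the 6 genes was 0.27, and the means of 3 of them lay below the mark for dim genes. The log2 of their summed level lay between 8.03 and 8.32 in exposed and between 7.85 and 8.08 in naive arrays. The part of these cells in the levels of Cd4 and Cd7 was not tested.

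Itgam encodes the α chain of the integrin CD11b/CD18, which binds ICAM1 and complement fragments on myeloid cells. It was measured at 9.51, 9.61, 9.78, 9.79 and 10.00 in exposed arrays 1, 2, 3, 4 and 6. The naive arrays 1 to 6 gave 10.00, 10.01, 9.99, 10.00, 10.14 and 10.26. As for Cd4, 4 exposed arrays lay below all naive arrays and exposed array 6 lay just above the lowest of them. The means were 9.74 ± 0.19 in exposed and 10.07 ± 0.11 in naive cells, and the difference of -0.33 ± 0.08 (95% limits -0.51 to -0.16) missed the threshold with an adjusted p of 0.0683. The exact permutation p was 0.00433, unadjusted.

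Itgam differed by -0.24 within arrays 4 to 6 and by -0.37 within arrays 1 to 3. In the model that holds the number set it fell by 0.31 ± 0.06 (adjusted p = 0.0222), and this held in 5 of 11 fits with an array left out. It failed there without exposed array 2 or 4 and without naive array 1, 2, 3 or 6, at most at an adjusted p of 0.0635. Itgam also passed when dim genes were removed before the adjustment (adjusted p = 0.0420), with all arrays brought to the same 75th percentile (-0.37, adjusted p = 0.0249) and after quantile normalisation (adjusted p = 0.0465), and in the model without number sets when exposed array 6 was left out (-0.40, adjusted p = 0.0180). Itgb2, the β chain CD18 that pairs with it, was measured at 12.03 ± 0.15 in exposed and 12.08 ± 0.15 in naive cells (difference -0.05, adjusted p = 0.888).

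**Figure D2:**
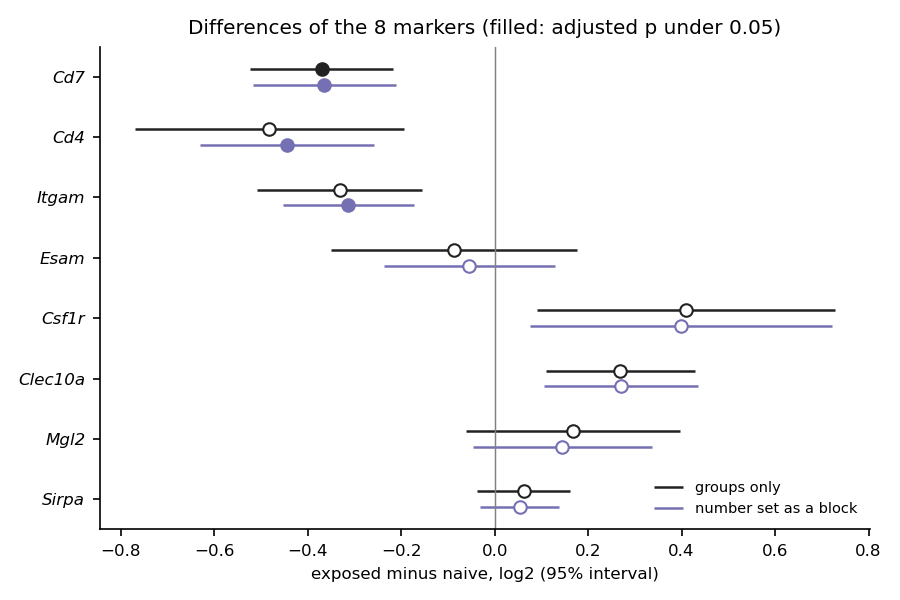
Difference of each marker, exposed minus naive in log2, with 95% intervals, from the model with groups only (black, upper) and with the number set added (violet, lower). Filled points passed an adjusted p of 0.05: Cd7 in both models, and Cd4 and Itgam with the number set.

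The RefSeq promoter table of build GRCm38.p6 gives 250 bases before to 50 after a gene's start. When the markers were looked up in it, a chromosome was left out, so the table may hold promoters of markers on that chromosome. Markers on other chromosomes that the lookup did not give are not in it under their symbols. The lookup gave 2 of the 8 markers, Itgam and Mgl2. Their promoters are shown because the study is built on C/EBPβ, a factor that binds DNA directly, and because PU.1 is a known regulator of Itgam. The C/EBP letters TTGCNNAA and the PU.1 core GAGGAA were searched on both strands, and matches are in capitals. Itgam lies at chr7:128062390-128062689 and Mgl2 at chr11:70130107-70130406, both on the plus strand.
Itgam: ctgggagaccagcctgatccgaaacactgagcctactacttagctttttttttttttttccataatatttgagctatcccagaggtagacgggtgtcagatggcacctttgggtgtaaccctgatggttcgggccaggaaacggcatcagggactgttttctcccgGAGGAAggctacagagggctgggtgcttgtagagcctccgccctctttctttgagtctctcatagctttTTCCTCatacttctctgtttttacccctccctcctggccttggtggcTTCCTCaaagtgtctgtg
Mgl2: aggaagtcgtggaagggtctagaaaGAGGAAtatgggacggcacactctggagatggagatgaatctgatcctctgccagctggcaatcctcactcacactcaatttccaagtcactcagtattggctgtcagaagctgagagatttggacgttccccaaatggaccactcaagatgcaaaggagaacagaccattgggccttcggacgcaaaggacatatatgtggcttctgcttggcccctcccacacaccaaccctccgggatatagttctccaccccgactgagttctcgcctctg

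The Itgam window held 3 matches to the PU.1 letters, 1 on the plus strand and 2 on the minus strand, where they read TTCCTC. The Mgl2 window held 1, on the plus strand. Of 32851 promoter windows in the table, 28.3% held at least 1. The C/EBP letters, found in 10.8% of the windows, were not in these 2, which says nothing about binding elsewhere.

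Esam encodes the endothelial cell-selective adhesion molecule, by which the Notch2-dependent type 2 cells of spleen are recognised. Its level was 7.41, 7.30, 7.72, 7.66 and 7.89 in exposed arrays 1, 2, 3, 4 and 6, and 7.43, 7.65, 7.44, 7.91, 7.71 and 7.97 in naive arrays 1 to 6. The groups overlapped over most of their range. The means were 7.60 ± 0.24 in exposed and 7.68 ± 0.23 in naive cells, a difference of -0.09 ± 0.12 (95% limits -0.35 to 0.18; adjusted p = 0.852). In this model, without the number set, these limits include a difference as large as that of Itgam. Arrays 4 to 6 stood 0.33 ± 0.08 above arrays 1 to 3 for Esam, with an adjusted p of 0.0526. With this term the exposed minus naive difference was -0.05 (95% limits -0.24 to 0.13, adjusted p = 0.839). The Itgam difference in the same model, -0.31, lies outside these limits. Whether the differences of Esam and Itgam were unlike was not tested.

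Cd4, Itgam, Esam and Cd7 shared a feature of order among the arrays, which was picked after their values were seen. For these 4 genes array 6, by the number in the title, was the highest of its group in both exposed and naive cells. The same was true of 6.83% of all genes. The lowest exposed array differed between the 4 genes: it was array 1 for Itgam, array 2 for Cd4 and Esam, and array 4 for Cd7.

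Csf1r encodes the receptor for CSF1 and IL-34, on which many macrophages and monocytes depend. It was measured at 11.54, 10.86, 10.59, 10.66 and 10.59 in exposed arrays 1, 2, 3, 4 and 6. In naive arrays 1 to 6 it was measured at 10.45, 10.56, 10.17, 10.35, 10.55 and 10.54. Every exposed array lay above every naive array, a separation that 1.42% of all genes showed upwards. Exposed arrays 3 and 6 did so narrowly. The means were 10.85 ± 0.40 in exposed and 10.44 ± 0.15 in naive cells, with a difference of 0.41 ± 0.15 (95% limits 0.09 to 0.73; adjusted p = 0.249). The exact permutation test of the difference in means gave an unadjusted p of 0.00216, which follows from the full separation of the groups. The difference was 0.40 with the number set in the model (adjusted p = 0.224).

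Exposed array 1 set much of the size of the Csf1r difference, which was 0.24 without it (adjusted p = 0.239). Arrays 4 to 6 alone gave a Csf1r difference of 0.14 and arrays 1 to 3 alone one of 0.60, and a limma interaction term for this contrast gave -0.46 ± 0.28 (unadjusted p = 0.128). Over all genes the interaction passed for 0% at the adjusted threshold, with 943 genes at an unadjusted p under 0.05, and 0 of the 8 markers reached that. Csf1, the gene of one ligand, averaged 6.41 ± 0.19 in exposed and 6.09 ± 0.09 in naive cells (0.32, adjusted p = 0.0748), and Il34, the gene of the other, 5.51 ± 0.14 and 5.40 ± 0.03 (0.11, adjusted p = 0.560).

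Markers of red pulp macrophages, which also carry Csf1r, were high in the same array. The mean of the 13 measured markers was 10.66, 9.68, 8.83, 8.72 and 8.65 in exposed arrays 1, 2, 3, 4 and 6, and 8.79, 9.18, 8.05, 8.57, 8.71 and 8.44 in naive arrays 1 to 6. Exposed arrays 1 and 2 were higher than any naive array, and exposed arrays 3, 4 and 6 lay among them. Of the 13 genes, 11 had a positive difference and 0 were called in limma (8 had an unadjusted p under 0.05), with a median difference of 0.71. The apoptosis inhibitor gene Cd5l had the largest, 1.89 (adjusted p = 0.0693). Cd5l rose with the number set in the model (1.80, adjusted p = 0.0400). The defining factor Spic was at 9.85 ± 0.62 in exposed and 9.18 ± 0.33 in naive cells. The log2 of the summed level of the 13 genes ranged from 12.83 to 14.62 in exposed and from 12.28 to 13.37 in naive arrays, and none of them had a mean below the mark for dim genes. The part of macrophages in the Csf1r level was not tested.

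**Figure D3:**
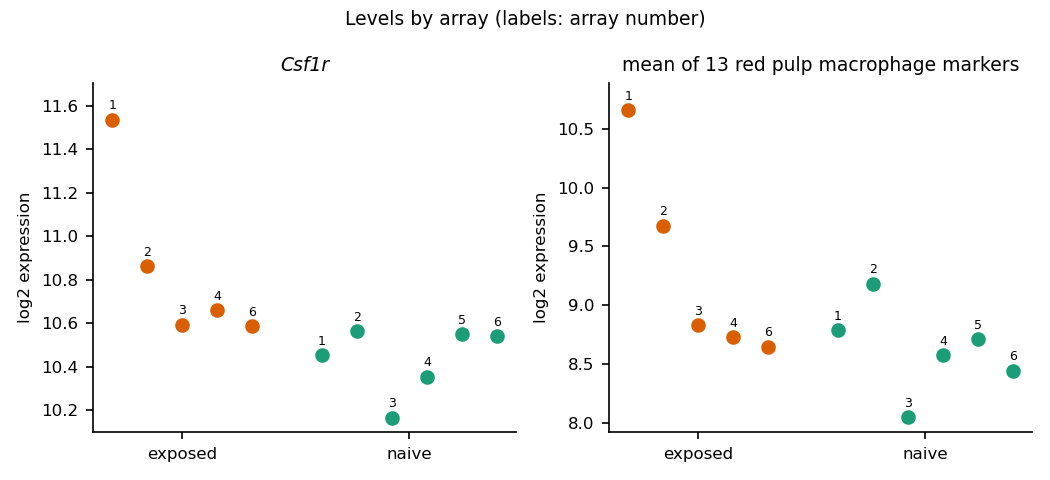
Log2 expression of Csf1r (left) and the mean of 13 red pulp macrophage markers (right) in each array, exposed arrays left of naive arrays, labelled by array number. Exposed array 1 is the highest in both panels, at 11.54 and 10.66.

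Clec10a and Mgl2 encode the mouse macrophage galactose-type lectins 1 and 2, which bind galactose-type sugars and mark the type 2 cells of several tissues. They are close relatives, and whether the probes of one gene also bind transcripts of the other was not tested. Clec10a was measured at 5.14, 5.24, 5.37, 5.49 and 5.32 in exposed arrays 1, 2, 3, 4 and 6, and at 5.14, 4.99, 5.15, 4.99, 4.88 and 5.10 in naive arrays 1 to 6. Exposed arrays 2, 3, 4 and 6 were each higher than any naive array, and exposed array 1 was not. The means were 5.31 ± 0.13 in exposed and 5.04 ± 0.11 in naive cells. The difference of 0.27 ± 0.07 (95% limits 0.11 to 0.43) had an adjusted p of 0.105, and an unadjusted exact permutation p of 0.00649. All of these levels lie below the mark for dim genes.

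Arrays 4 to 6 alone gave a Clec10a difference of 0.41 and arrays 1 to 3 alone one of 0.16. The model that holds the number set gave 0.27 (adjusted p = 0.0909). Mgl2 was measured at 5.84, 5.96, 6.02, 5.98 and 5.76 in exposed arrays 1, 2, 3, 4 and 6, and at 6.09, 5.97, 5.71, 5.68, 5.44 and 5.58 in naive arrays 1 to 6. All exposed arrays lay within the range of the naive ones. The means were 5.91 ± 0.11 in exposed and 5.74 ± 0.24 in naive cells, with a difference of 0.17 ± 0.11 (95% limits -0.06 to 0.40; adjusted p = 0.596). Taken alone, arrays 4 to 6 gave 0.30 for Mgl2 and arrays 1 to 3 gave 0.02, and with the number set in the model it was 0.14 (adjusted p = 0.510).

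Sirpa encodes SIRPα, an inhibitory receptor that binds CD47 and signals through the phosphatases SHP-1 and SHP-2. It had the narrowest spread of the 8 markers. Its level was 11.64, 11.52, 11.52, 11.39 and 11.45 in exposed arrays 1, 2, 3, 4 and 6, and 11.48, 11.46, 11.43, 11.40, 11.39 and 11.47 in naive arrays 1 to 6. The exposed arrays spread on both sides of the naive ones, with 3 above all of them and 1 below. The means were 11.50 ± 0.10 in exposed and 11.44 ± 0.04 in naive cells, and the difference of 0.06 ± 0.05 had 95% limits of -0.04 and 0.16 (adjusted p = 0.669). It was 0.05 with the number set in the model (adjusted p = 0.597). A change of Sirpa as large as the fall of Cd7 lies outside these limits. The ligand gene Cd47 (0.01), and Ptpn6 (-0.04) and Ptpn11 (0.06), which encode SHP-1 and SHP-2, also did not pass (adjusted p = 0.978, 0.796 and 0.812).

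**Figure D4:**
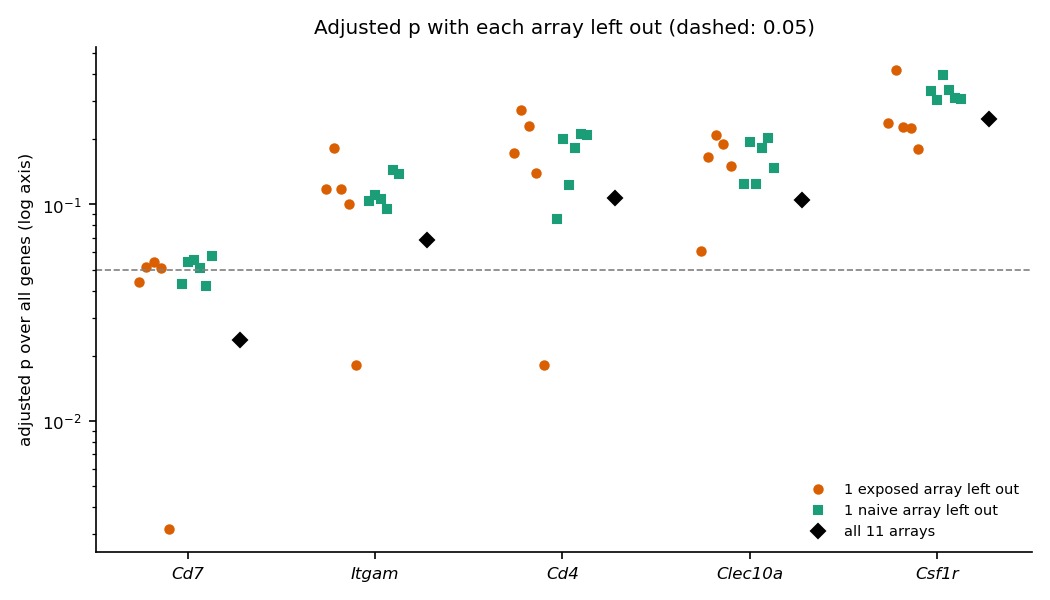
Adjusted p over all genes (log axis) of 5 markers when each array was left out in turn, with exposed arrays (circles) left of naive arrays (squares) and the value from all 11 arrays as a diamond. Cd7 lies on both sides of the dashed line at 0.05, and leaving out exposed array 6 brings Cd7, Itgam and Cd4 to 0.00314, 0.0180 and 0.0181.

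Other genes linked to type 2 cells also moved in both directions. Of 14 further type 2 genes, 2 fell, 1 rose and 11 did not pass, with a median difference of -0.01. Clec4a4, which encodes the lectin DCIR2 of CD4-positive type 2 cells, fell to 10.54 ± 0.22 in exposed cells, against 10.96 ± 0.08 in naive cells (-0.43, adjusted p = 0.0250). It passed in 4 of 11 fits with an array left out. It failed without exposed array 2, 3 or 4 and without naive array 1, 2, 4 or 6, at most at an adjusted p of 0.0631. Cx3cr1, the fractalkine receptor found on ESAM-low cells and monocytes, rose to 8.18 ± 0.10 in exposed cells, against 7.72 ± 0.13 in naive cells (0.46, adjusted p = 0.00866), and passed in all 11. The other fall was that of the lectin gene Cd209a (-1.02, adjusted p = 0.00345), of which a second probeset gave -0.44 (adjusted p = 0.375 over all probesets).

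Csf3r, the receptor of granulocyte colony-stimulating factor, and Dtx1, a gene of the Notch pathway, were picked from this list after their values were seen. Csf3r was at 8.38 ± 0.19 in exposed and 8.03 ± 0.11 in naive cells, each exposed array being higher than any naive one (0.36, adjusted p = 0.0589), and it rose with the number set in the model (0.35, adjusted p = 0.0401). Dtx1 was at 9.76 ± 0.19 in exposed and 10.00 ± 0.06 in naive cells (-0.25, adjusted p = 0.151).

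Among 11 measured transcription factors and signals of type 2 cells, Relb rose, 0 fell and 10 did not pass, and the median difference was -0.10. At an unadjusted limma p under 0.05, Relb was higher in exposed cells, and Runx3, Irf2 and Nr4a3 were lower. Nr4a3, picked after its value was seen, had the largest difference of the list (-0.50, adjusted p = 0.288). With the number set in the model it was -0.55 (adjusted p = 0.0640). Relb, a subunit of NF-kB needed for these cells in mouse spleen, rose to 10.67 ± 0.08 in exposed cells, against 10.42 ± 0.05 in naive cells (0.25, adjusted p = 0.0194). It missed the threshold without exposed array 2 (adjusted p = 0.0577) and without naive array 5 (adjusted p = 0.0501). It also missed it with all arrays brought to the same 75th percentile (0.22, adjusted p = 0.0624), with a replicate block by the title's or the characteristic's number (adjusted p = 0.0504 and 0.0652), and in arrays 4 to 6 or 1 to 3 alone (adjusted p = 0.290 and 0.192). The regulators Irf4 (-0.22, adjusted p = 0.491), Klf4 (0.33, adjusted p = 0.509) and Notch2 (-0.11, adjusted p = 0.489) did not pass. Runx3, picked after its value was seen, was at 9.32 ± 0.18 in exposed and 9.68 ± 0.16 in naive cells (-0.36, adjusted p = 0.0748), and fell with the number set in the model (-0.38, adjusted p = 0.00888), as did Irf2 (-0.18, adjusted p = 0.0383). Of the 11 measured ligands, partner chains and signalling partners of the 8 markers, 0 were called in limma (2, Csf1 and Fyb, had an unadjusted p under 0.05).

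The 12 measured markers of type 1 cells had a median difference of 0.04, with 10 positive and 0 called in limma (2, Irf8 and Ly75, had an unadjusted p under 0.05). Their mean lay between 10.54 and 10.87 in exposed arrays and between 10.55 and 10.82 in naive arrays. The mean of the 8 type 2 markers lay between 9.12 and 9.29 in exposed arrays and between 9.14 and 9.35 in naive arrays, so both lists overlapped between the groups. Among 8 measured monocyte markers the lysozyme gene Lyz2 rose to 12.17 ± 0.27 in exposed cells, against 11.67 ± 0.14 in naive cells (0.50, adjusted p = 0.0355), and 7 did not pass. Lyz2 passed in 1 of 11 fits with an array left out, the one without exposed array 2, with adjusted p up to 0.0940 in the others. The mean log2 level of the monocyte list overlapped, between 7.29 and 7.81 in exposed arrays and between 7.23 and 7.80 in naive arrays. The log2 of its summed level did not overlap, at 12.62 to 12.89 in exposed and 12.22 to 12.50 in naive arrays. Lyz2 weighs most in this sum: its mean over all arrays was 11.90, and that of Plac8, the next gene, was 10.20. Of the 8 genes, 5 had a positive difference, and Plac8 was lower in exposed cells (-0.17) without passing. The means of 3 of the 8 genes lay below the mark for dim genes. The part of monocytes in the levels of Csf1r and Cx3cr1 was not tested.

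**Figure D5:**
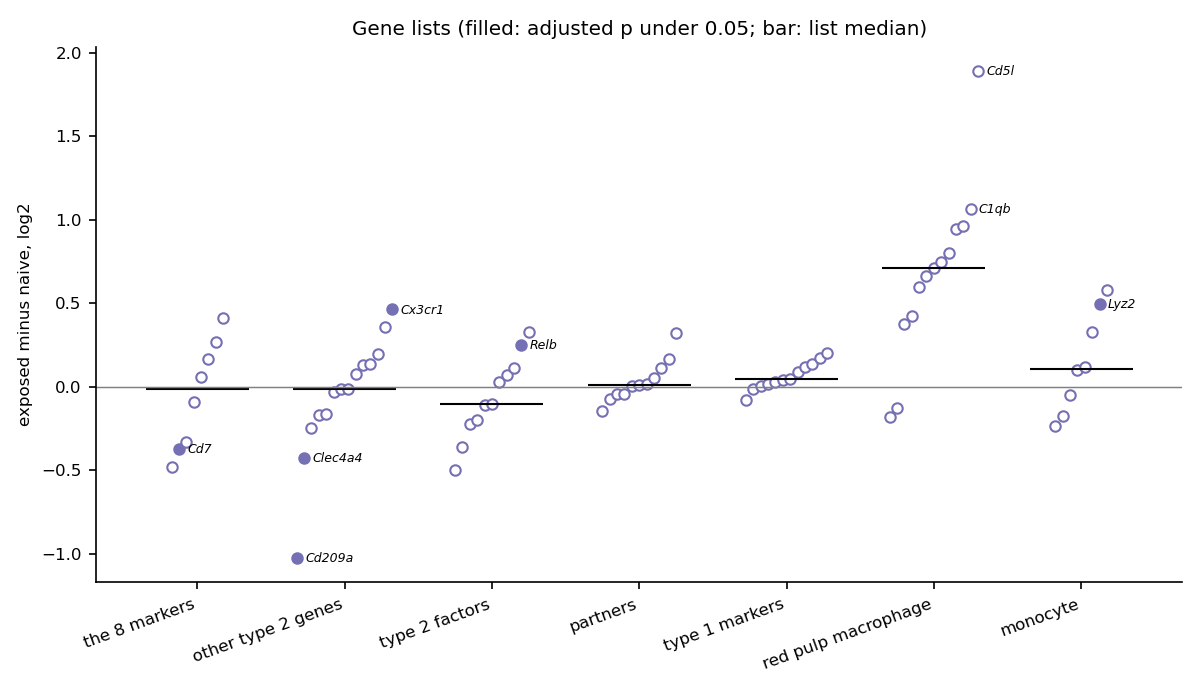
Difference of each gene, exposed minus naive in log2, in the 8 markers and 6 other gene lists, with filled points for an adjusted p under 0.05 and a bar at each list's median. The medians lie between -0.10 and 0.11 except for the red pulp macrophage list, at 0.71.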

How the data were processed

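Each array holds a log2 level for every probeset, which the authors computed with RMA, per the submitters' processing notes; its version and the genome build are not given in the sources used here. RNA was labelled for 1-colour Affymetrix arrays, per the labels' protocols. Of 41801 probesets, 7329 are blank on every array. Of the rest, 23521 name 1 gene in the platform's probe table, giving 22180 genes after the brightest probeset of each was kept. Dim genes stayed in. For arrays, their number limits the precision.

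Groups were compared with limma 3.58.1 in R 4.3.3 (lmFit, then eBayes with a mean-variance trend), adjusting p-values by Benjamini-Hochberg over every gene. SE is the moderated standard error and SD the spread between arrays. The number set splits array numbers at 3 and 4. Permutation tests were exact. The fit was tested on simulated data. The 8 markers, the 13 other lists and the alternatives were chosen with earlier results of these data known. Named genes are the 8 markers, Itgax, Flt3, Zbtb46, up to 3 called genes per list and direction (otherwise the one with the largest difference) and the 2 nearest patterns of each marker. Other genes are named as partners or regulators of the markers, or as examples, after their values were seen.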

Additional observations from a re-analysis of the deposited data

How the results depend on the processing

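Alternatives were other variance models, array weights, rescalings, a filter on dim genes, other choices of probesets, blocks, number sets alone and each array left out. Changed genes numbered 316 and were 617 with the number set as a block, 182 with a replicate block by the characteristic's number, 11 in arrays 1 to 3 alone, 5 in arrays 4 to 6 alone, and 104 to 395 with 1 array left out. Called markers numbered 1 and were 3 (Cd7, Cd4 and Itgam) with the number set or with a replicate block by the title's number, 2 with quantile normalisation, a common 75th percentile or the filter on dim genes, 0 with the characteristic's number as a block or in either number set alone, and 0 to 3 with 1 array left out. Genes called in the other lists numbered 9 and were 14 with the filter, 15 with the number set, 1 and 0 in arrays 1 to 3 and 4 to 6 alone, and 5 to 10 with 1 array left out; these counts were added after the data were seen.

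Cd7 was lost with the characteristic's number as a block (-0.35, adjusted p = 0.0677) and in arrays 1 to 3 (-0.39) or 4 to 6 (-0.34) alone, which hold fewer arrays; leaving out 1 array gave -0.43 to -0.33. Cd4 passed with the number set (-0.44) and the title's number (-0.45) as a block, and by the unadjusted permutation test (-0.48); leaving out 1 array gave -0.60 to -0.41. Itgam passed with quantile normalisation (-0.33), a common 75th percentile (-0.37), the filter (-0.33), the number set (-0.31), the title's number (-0.32) and the unadjusted permutation test (-0.33); leaving out 1 array gave -0.40 to -0.27. Clec10a (0.27) and Csf1r (0.41) were under 0.05 only by the permutation test, which is unadjusted. Before adjustment their limma p was also under 0.05, as it was for 12.2% of all genes. Sirpa changed sign in arrays 4 to 6 alone (-0.0052). Esam and Mgl2 kept direction and side of the threshold in every alternative run. Of the 9 calls in the other lists, Clec4a4, Relb and Ncr1 were lost with either replicate block and Lyz2 with that by the characteristic's number and without a variance trend; in arrays 1 to 3 alone only Cd22 passed. The cause of these changes was not tested.

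Same-numbered exposed and naive arrays correlated at 0.0880 to 0.231 after group means were removed, and 2 of 5 exposed arrays correlated best with their own number, so the arrays were not treated as paired. The last exposed array has 6 in its title and 5 in its characteristic. Clec10a, below the mark for dim genes, is limited by its low signal.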

Other observations

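For each marker the genes with the most similar pattern over the 11 arrays were sought among 11829 genes above the mark for dim genes (predicted genes left out), by the root mean square distance in log2 units once each gene's own mean is removed. The gene nearest to Itgam was Kit, the receptor for stem cell factor, at a distance of 0.06, and Kit itself differed by -0.28 (adjusted p = 0.122). Kit fell by 0.26 on the log2 scale with the number set in the model (adjusted p = 0.0383). The next was Ptchd1 (0.07). Rtn1 was nearest to Cd7 (0.08) and fell by 0.38 on the log2 scale (adjusted p = 0.00733), followed by Trappc5 (0.08). Cd4 was most like Sash1 (0.11) and the lectin-like receptor gene Klri1 (0.12). Csf1r was most like Itsn1 (0.07) and Tmem65 (0.08).

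Esam was nearest to Edc4 (0.07) and Stk40 (0.09), Clec10a to Fgfr3 (0.09) and Jade3 (0.09), Mgl2 to Angptl7 and Pik3c2b (both 0.10), and Sirpa, which varied little, to Clic3 and Lamp2 (both 0.03). The spread of each marker about its own mean, on the same measure, was 0.34 for Cd4, 0.33 for Csf1r, 0.22 for Cd7, 0.21 for Itgam and Esam, 0.19 for Mgl2, 0.17 for Clec10a and 0.07 for Sirpa. These distances describe the 11 arrays, which share the split into groups and number sets.

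Lists of further cell types the sort could hold are read beside the 1.42% of all genes that were called. Of 9 B cell markers the inhibitory receptor gene Cd22 fell (9.66 in exposed and 10.20 in naive cells, adjusted p = 0.0238). The list did not fall as a whole: 6 of the 9 had a positive difference, and the median difference was 0.06. At an unadjusted limma p under 0.05, Cd79b (0.29) and Pax5 (0.23) were higher in exposed cells, and Cd22 and Blk were lower. Cd22 passed in 5 of 11 fits with an array left out, and failed without exposed array 2 or 3 and without naive array 3, 4, 5 or 6, at most at 0.0743. With the number set in the model the B cell kinase gene Blk also fell (-0.34, adjusted p = 0.0411), picked after its value was seen. Ncr1 passed in 3 of 11, those without exposed array 1 or 4 or naive array 2, and reached 0.0822 in the others. Of 3 marginal zone macrophage markers Marco rose by 1.54 (adjusted p = 0.00721) and Cd209b fell by 0.82 on the log2 scale (adjusted p = 0.0174), and both passed with each array left out. Of 8 plasmacytoid dendritic cell markers and 9 neutrophil markers 0 were called in limma; Klk1 (0.80, adjusted p = 0.354) and Ly6g (0.21, adjusted p = 0.377) had the largest differences and were the only genes of these lists with an unadjusted p under 0.05.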
